A study of Mus musculus with 15 samples.

Results

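Genes of protein folding and secretion in the endoplasmic reticulum (ER) were examined in mouse germinal centre B cells, as 50 genes chosen by symbol and measured among 19938 genes on whole-transcript microarrays. All 50 were found, each through a probe set annotated with that gene alone, and where a gene had several such probe sets the one with the highest mean was used. They comprised 20 genes of protein folding, 13 of translocation into the ER, 5 of export towards the Golgi, 7 of ER-associated degradation and 5 sensors and effectors of ER stress.

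The cells were SwHEL B cells, whose engineered receptor binds hen egg lysozyme. They carried CD45.1, were transferred into CD45.2 C57BL/6J recipients, and were sorted from spleen 10 days after immunization with sheep red blood cells coupled to the lysozyme mutant HEL3x. All animals were female. Each sort took CD45.1+ CD45.2- IgG1+ CD38 low cells, so cells of other isotypes and the recipients' own B cells were gated out of all 4 groups. Dark zone cells were CXCR4 high and CD86 low, light zone cells CD86 high and CXCR4 low, and each zone was divided into cells of high and low affinity. This gave 4 arrays of high-affinity dark zone cells (Dzhi), 4 of low-affinity dark zone cells (Dzlo), 3 of high-affinity light zone cells (Lzhi) and 4 of low-affinity light zone cells (Lzlo). The labels name no unimmunized group, and do not say whether the arrays of a group came from separate mice, so p-values measure only the spread between these samples.

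The ER is where immunoglobulin chains are inserted, folded, joined by disulphide bonds and checked before export. Chaperones and protein disulphide isomerases do the folding, the Sec61 channel and signal peptidase bring the chains in, and misfolded chains are drawn back out for degradation. The sensors IRE1, ATF6 and PERK read the load of unfolded protein and adjust transcription and translation. In the B lineage this machinery is best known for its expansion in plasma cells, which secrete antibody, whereas germinal centre B cells mainly divide, mutate their receptors and undergo selection.

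Values were log2 intensities after robust multi-array averaging (RMA), so a difference of 1 is a doubling. Array medians ran from 5.57 to 5.74 and the correlations between arrays from 0.94 to 0.993. Germinal centre B cell markers were bright in all groups: Bcl6 averaged 9.81 to 10.24 over the 4 groups and Cd79b 11.9 to 12.16. Between the zones the sorting markers followed the gates. Cd86 was higher in light zone cells by 1.04 ± 0.11 (SE, adjusted p = 0.00255 in limma). Cxcr4 stood at -0.69 ± 0.16 (adjusted p = 0.152, and 0.0386 with the experiment as a block). Within the dark zone Cd86 was also lower in Dzhi than in Dzlo, at -0.64 ± 0.15 (unadjusted p = 0.000892 in limma, not passing after adjustment). It measured 9.41, 9.58, 9.27 and 10 in Dzhi and 10.28, 10, 10.12 and 10.41 in Dzlo. Cxcr4 differed by -0.12 ± 0.21 there. The part of this Cd86 difference in the members' values was not tested. The sample descriptions carry an experiment code, merged here into A to D. Its meaning is not stated, code B is written differently for the zones, and no Lzhi array had code D. Both low-affinity arrays of experiment D stood apart: the mean of 15 neutrophil markers, relative to all arrays, was 1.46 in Dzlo replicate 3 and 2.74 in Lzlo replicate 3, against -1.03 to 0.41 in the other 13 arrays. Markers of other cells were also high there: in Lzlo replicate 3 those of T cells stood at 1.52, of NK cells at 1.30 and of myeloid cells at 0.89. In Dzlo replicate 3 they stood at 0.38, 0.49 and 0.43, and T cell markers reached 0.64 in Lzlo replicate 4. Some of the counts and larger values that turn on the 2 arrays are also given without them.

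The unfolded protein response is known to act through short promoter elements, and matches to them in the members are shown as background. Promoters of 300 bases, 250 before to 50 after the start, came from RefSeq on GRCm38.p6. They covered 40 of the 50 members with 49 promoters, 7 members having more than 1. The ER stress response element was searched on both strands as CCAAT and CCACG with 9 bases between them. It occurred in 8 of the 40 members (20%) and in 37 of 27025 genes with a promoter (0.137%). The stretches with 10 bases on either side are printed 5′ to 3′ along the gene's strand, with the matched letters in capitals. A match on the opposite strand reads CGTGG, then ATTGG.
Hspa5: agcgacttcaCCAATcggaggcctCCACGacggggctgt
Hsp90b1, upstream match: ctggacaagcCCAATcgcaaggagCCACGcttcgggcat
Hsp90b1, downstream match: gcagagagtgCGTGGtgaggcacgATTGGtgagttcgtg
Calr: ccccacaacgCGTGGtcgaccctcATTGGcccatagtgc
Canx: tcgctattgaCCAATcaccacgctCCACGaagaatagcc
Pdia6: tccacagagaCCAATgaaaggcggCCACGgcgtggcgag
Creld2: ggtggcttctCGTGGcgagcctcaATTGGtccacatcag
Dnajc3: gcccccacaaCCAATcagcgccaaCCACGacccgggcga
Syvn1: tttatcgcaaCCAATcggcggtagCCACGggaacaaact
The Hspa5 match lay 65 to 47 bases before the start on chromosome 2, and the Syvn1 match 44 to 26 bases before it on chromosome 19. The other matches lay between 212 and 80 bases before the start. Of the 8 genes, 7 are folding genes and Syvn1 is a degradation gene.

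The core of the unfolded protein response element, TGACGTGG, which XBP1 and ATF6 are known to bind, was found in 3 of the 40 members (7.5%) and in 0.714% of all genes with a promoter. It is shown for these members because Sec24d and Txndc11 are described at length below.
Sec24d: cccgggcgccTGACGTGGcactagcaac
Txndc11: gaagtgtggcTGACGTGGagagtccggg
Txndc5: gcctcgccgcTGACGTGGcgctagccgc
These matches lay 26 to 19, 102 to 95 and 138 to 131 bases before the start. No member held both elements. The amino acid response element, TGATGNAAN, bound by ATF4 and its partners, occurred in Txndc5 and Herpud1, 2 of the 40 members (5%), against 4.5% of all genes. A match of letters is a description and was not tested as a binding site.

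**Figure D1:**
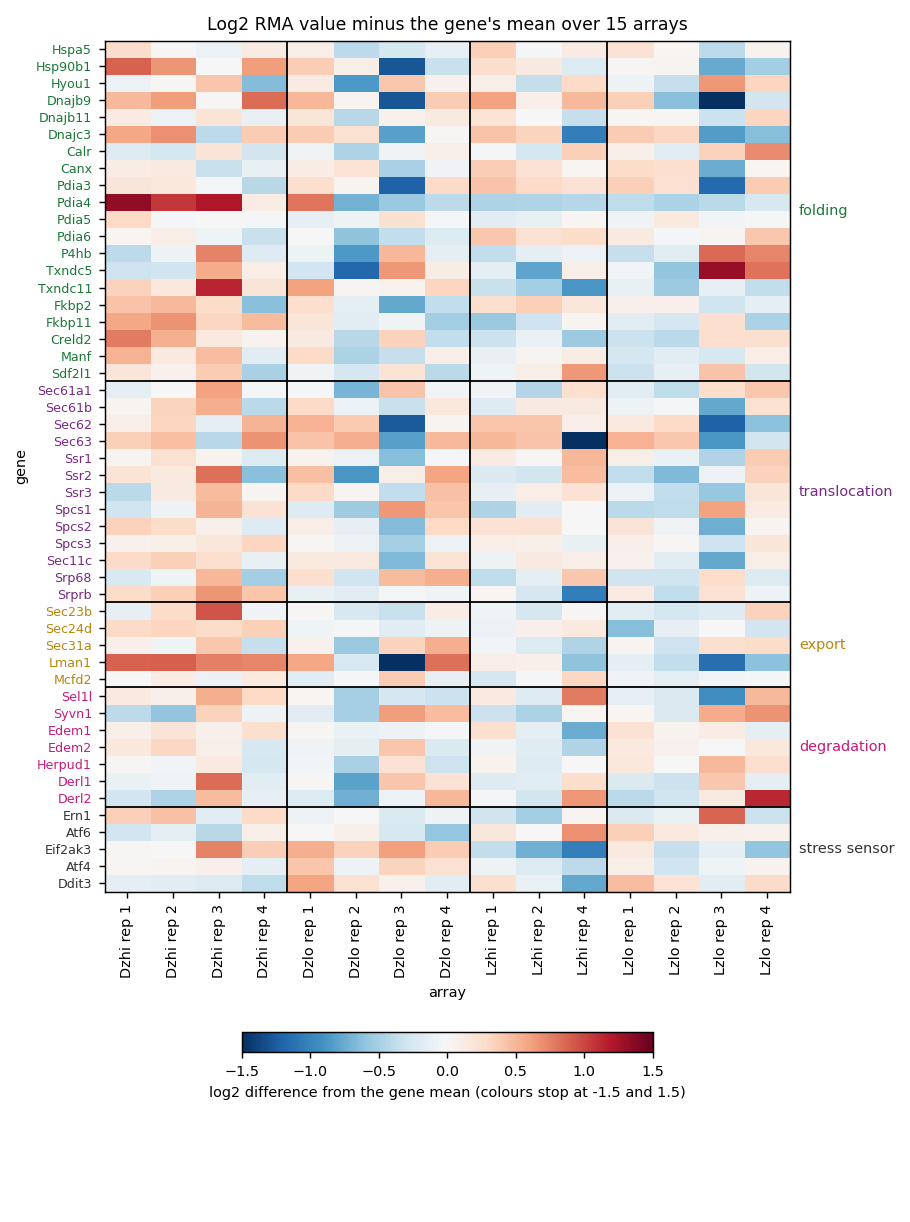
Log2 RMA value of each of the 50 genes (rows, by role) minus that gene's mean over 15 arrays, in each array (columns, by group). The colours stop at -1.5 and 1.5. The Dzhi columns hold the highest values of Pdia4 and Lman1, and the lowest values of 16 genes lie in Dzlo replicate 2.

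Group means of single genes spread unevenly over the 4 groups. Dzhi had the highest mean for 26 of the 50 members, against 24.5% of all genes, and the lowest mean for 4, against 22.6%. By role, Dzhi was the highest group for 10 of 20 folding, 8 of 13 translocation, 4 of 5 export, 3 of 7 degradation and 1 of 5 stress genes. Lzhi was the lowest group for 19 members, against 28.3% of all genes. The arrays of a group were uneven too. Dzlo replicate 2 held the lowest of the 15 values for 16 members, Lzhi replicate 4 for 10, Dzlo replicate 3 for 8 and Lzlo replicate 3 for 7, while Dzhi replicate 3 held the highest for 9. These extremes were not counted over all genes, so they cannot be called particular to the members.

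Between the zones, over both affinities, 1 of the 50 members passed an adjusted p under 0.05 in limma, and it was lower in light zone cells. Over all genes 0.155% passed, and 0.0702% passed with lower values. Eif2ak3, which encodes PERK, the sensor kinase that slows translation during ER stress, fell by 0.85 ± 0.14 (SE, log2), which is 1.80-fold (adjusted p = 0.0363). At an unadjusted p under 0.05 stood 9 members, 2 higher and 7 lower, against 2.47% and 1.91% of all genes. Light zone values were above dark zone values for 18 of 50 members (20 without both low-affinity D arrays), against 48% of all genes. The median difference was -0.10 against -0.01. Plasma cell markers mostly lay the same way, with 8 of 9 lower in light zone cells and a median of -0.24. At an unadjusted p under 0.05, 4 were lower and 1, Irf4, was higher, by 0.74 ± 0.17 (adjusted p = 0.165 in limma). Of the lower markers, Jchain stood at -1.05 ± 0.29 (adjusted p = 0.35, and 0.0272 with the experiment as a block). The part of plasma cell markers in the members' values was not tested. In bulk samples, fewer cells of a type and less RNA per cell cannot be told apart.

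Among the stress sensors, Eif2ak3 measured 9.23, 9.19, 9.94 and 9.57 in Dzhi and 9.75, 9.55, 9.82 and 9.58 in Dzlo. It measured 8.83, 8.48 and 8.18 in Lzhi and 9.35, 8.86, 9.07 and 8.61 in Lzlo. Every light zone array except Lzlo replicate 1 was below every dark zone array. Within experiments the light minus dark difference was negative in all 7 pairs, from -0.40 and -0.41 in the 2 pairs of experiment A to -1.76 in the high-affinity pair of experiment C. The call depended on the setting: leaving out both low-affinity D arrays gave -0.84 (adjusted p = 0.0765), and with the experiment as a block it was -0.83 ± 0.14 (adjusted p = 0.0325). Atf6, a sensor that is cut in the Golgi to release a transcription factor, lay on the other side.

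Atf6 measured 8.33, 8.48, 8.20 and 8.71 in Dzhi, 8.61, 8.70, 8.38 and 8.04 in Dzlo, 8.79, 8.61 and 9.31 in Lzhi, and 8.98, 8.77, 8.69 and 8.68 in Lzlo. The light minus dark difference was 0.41 ± 0.13 (adjusted p = 0.552), positive in all 7 pairs, but the zones overlapped. Atf4, the transcription factor translated when PERK is active, stood at -0.25 ± 0.09 (adjusted p = 0.804) and was lower in light zone cells in all 7 pairs. Ern1, which encodes the sensor nuclease IRE1, stood at -0.16 ± 0.17, and Ddit3, the stress factor CHOP, at 0.02 ± 0.15. The 5 stress genes thus had no common direction, with 2 above 0 and a median of -0.16.

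The folding genes divided between the zones, with 10 of 20 higher in light zone cells and a median of 0.04. Txndc11, a thioredoxin-domain protein known from disulphide chemistry and degradation in the ER, measured 8.24, 8.05, 9.03 and 8.08 in Dzhi and 8.49, 7.93, 7.94 and 8.21 in Dzlo. Its values were 7.56, 7.38 and 7.01 in Lzhi and 7.78, 7.34, 7.77 and 7.52 in Lzlo. All 7 light zone values lay below all 8 dark zone values, as for 0.0953% of all genes and no other member. The difference of -0.79 ± 0.16 did not pass (adjusted p = 0.0937, and 0.0534 with the experiment as a block).

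Pdia6, a disulphide isomerase, was the folding gene with the largest positive difference, 0.40 ± 0.11 (adjusted p = 0.269). It measured 9.31, 9.38, 9.22 and 8.95 in Dzhi, 9.28, 8.68, 8.91 and 9.07 in Dzlo, 9.68, 9.51 and 9.56 in Lzhi, and 9.41, 9.25, 9.32 and 9.68 in Lzlo. All Lzhi arrays were above all dark zone arrays, whereas 2 Lzlo arrays lay within the dark zone range. The related isomerase Pdia4 stood at -0.77 ± 0.22 (adjusted p = 0.40), and Fkbp11, a proline isomerase of secretory cells, at -0.40 ± 0.13 (adjusted p = 0.607). The central chaperones lay nearer to 0, with Hspa5 (BiP, the Hsp70 of the ER) at 0.11 ± 0.11, the lectin chaperone gene Calr at 0.26 ± 0.14 and Hsp90b1 (GRP94, the Hsp90 of the ER) at -0.25 ± 0.23.

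For translocation, 2 of 13 genes lay above 0, with a median of -0.15. Srprb, a subunit of the receptor that docks ribosomes on the ER, stood at -0.39 ± 0.14 (adjusted p = 0.775), and Sec63, which helps chains through the channel, at -0.49 ± 0.42. Both values leaned on Lzhi replicate 4. It measured 5.52 for Sec63, where the other 14 arrays lay between 7.04 and 8.59, and 6.13 for Srprb, and without it the differences were -0.01 for Sec63 and -0.24 for Srprb. The channel genes Sec61a1 and Sec61b stood at -0.04 ± 0.19 and -0.13 ± 0.17. All 5 export genes lay below 0, with a median of -0.16. They ran from -0.06 ± 0.10 for the cargo receptor subunit Mcfd2 to -0.68 ± 0.32 for its partner Lman1. Without both low-affinity D arrays Lman1 stood at -0.86 and Mcfd2 at 0.0. Degradation genes had 4 of 7 above 0 and a median of 0.02, from Derl2, a channel component, at 0.24 ± 0.26 to Edem1, a mannosidase-like protein, at -0.13 ± 0.12. None of these 25 genes passed.

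**Figure D2:**
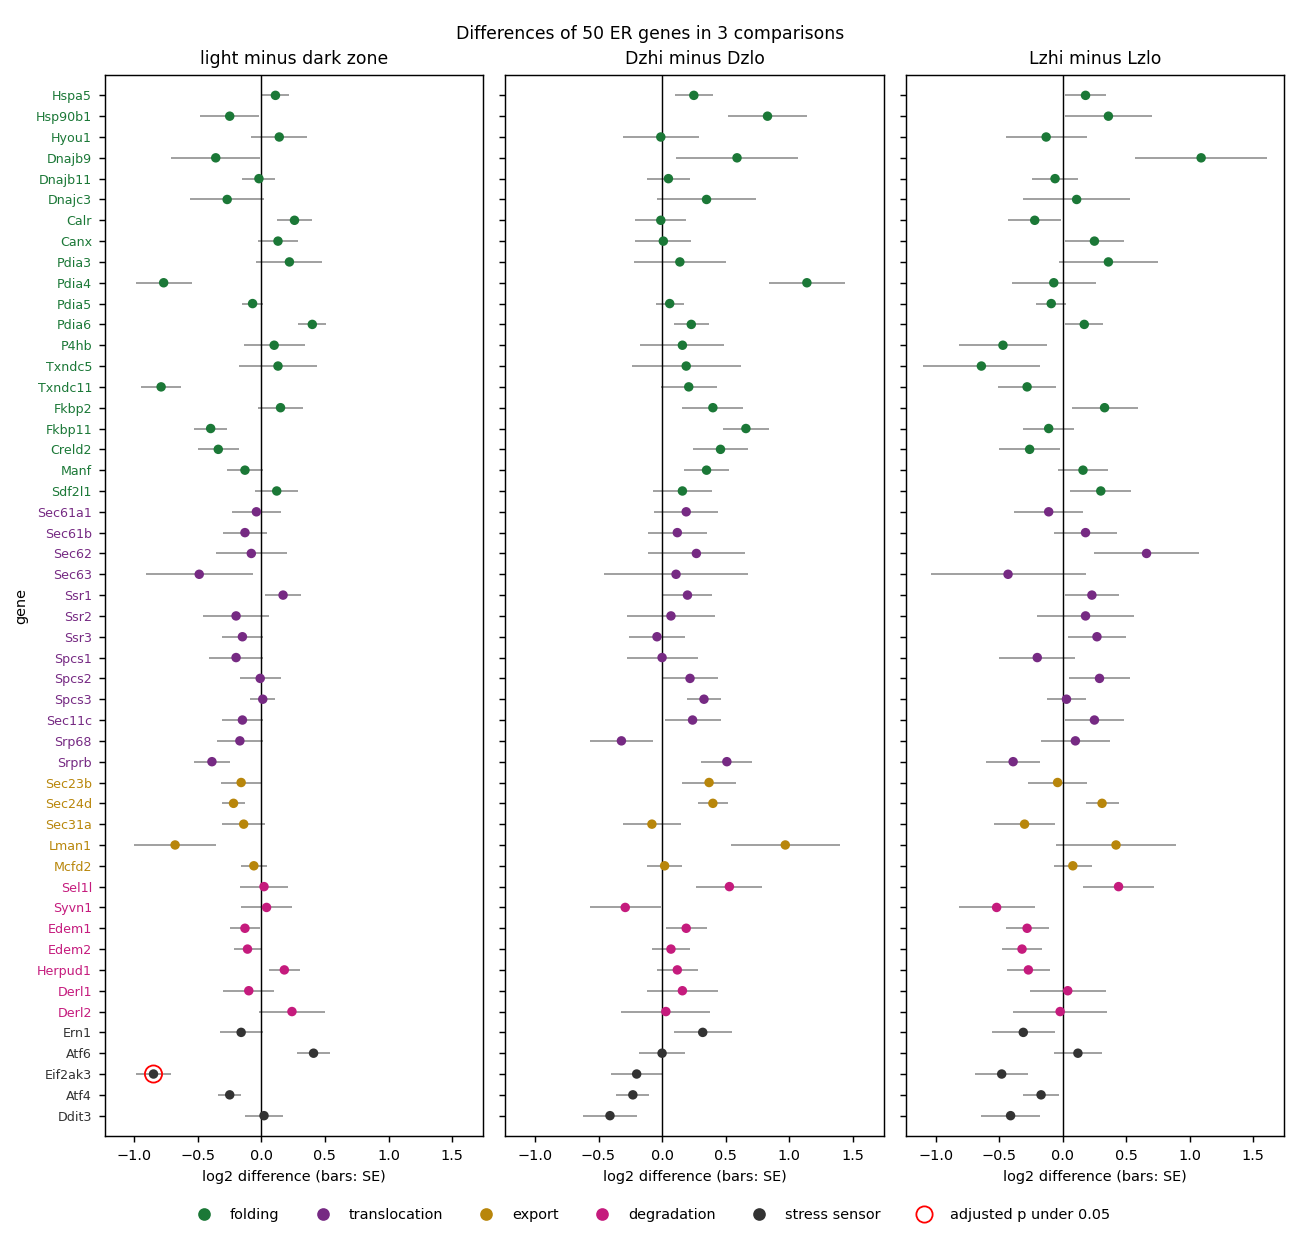
Log2 difference with its standard error for the 50 genes, coloured by role, for light minus dark zone over both affinities, Dzhi minus Dzlo and Lzhi minus Lzlo. The circled point is Eif2ak3 at -0.85, and 40 of 50 points lie above 0 in the middle panel.

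Taken within one affinity, the zones gave no member that passed in limma. In high-affinity cells 0.015% of all genes passed, and 8 members had an unadjusted p under 0.05, against 2.8% of all genes. Lzhi lay wholly below Dzhi for 8 members, against 1.85% of all genes, and wholly above for Pdia3 and Pdia6, against 1.84%. The lowest differences were those of Pdia4 at -1.37 ± 0.33, Txndc11 at -1.03 ± 0.23, Eif2ak3 at -0.99 ± 0.21, Lman1 at -0.96 ± 0.47, Srprb at -0.85 ± 0.21 and Fkbp11 at -0.79 ± 0.20. Without Lzhi replicate 4 the Srprb value was -0.54. With the experiment as a block, 14 members had an unadjusted p under 0.05, against 4.07% of all genes. This comparison shares the Dzhi arrays with that of affinity in the dark zone, so the low values of Pdia4, Srprb and Fkbp11 here and their high values there rest on the same arrays.

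In low-affinity cells 0.01% of all genes passed, and 5 members had an unadjusted p under 0.05, against 3.53%. This count ran from 2 without Dzlo replicate 4 to 8 without Dzlo replicate 3. Eif2ak3 stood at -0.71 ± 0.20, Txndc11 at -0.54 ± 0.22 and Pdia6 at 0.43 ± 0.14. Pdia4 measured 8.03, 7.94, 8.01 and 8.17 in Lzlo, inside the Dzlo range of 7.70 to 9.22. Lzlo lay wholly below Dzlo for Txndc11 and Eif2ak3, against 0.918% of all genes.

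Affinity was compared next within the dark zone, where no gene of the 19938 passed in limma (0%) and every adjusted p of a member was 1. The members nevertheless leaned towards high-affinity cells: 40 of 50 were higher in Dzhi, against 50.4% of all genes, and the median difference was 0.17 against 0. An unadjusted p under 0.05 was reached by 7 members, all higher in Dzhi, against 0.757% of all genes in that direction. With the experiment as a block there were 13 such members, 11 higher and 2 lower, against 1.36% and 1.47% of all genes. All 4 Dzhi values exceeded all 4 Dzlo values for Fkbp11, Spcs3, Srprb, Sec24d, Sel1l and Edem1, 6 members against 0.632% of all genes. The reverse held for 0 members, against 0.476%.

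Folding genes gave 18 of 20 above 0 and a median of 0.22. Pdia4 measured 9.74, 9.47, 9.61 and 8.53 in Dzhi, 9.22, 7.70, 7.86 and 8.02 in Dzlo, and 7.94 to 8.17 in the 7 light zone arrays. The difference between Dzhi and Dzlo was 1.14 ± 0.30, 2.20-fold (unadjusted p = 0.00214 in limma). Dzhi replicates 1 to 3 were above every other array, while Dzlo replicate 1 was above Dzhi replicate 4. Within experiments the difference was positive 4 times, at 0.52, 1.76, 1.60 and 0.67 in A to D. A dimmer Pdia4 probe set, with a mean of 4.47, differed by 0.61 in the same direction.

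Fkbp11 measured 6.05, 6.15, 5.80 and 5.95 in Dzhi and 5.66, 5.31, 5.41 and 4.95 in Dzlo, and its Dzhi values were also above the 4.92 to 5.71 of the light zone. The difference was 0.66 ± 0.18, 1.57-fold (unadjusted p = 0.00294 in limma), and it was positive in all 4 experiments. Hsp90b1, which folds immunoglobulin chains and surface receptors, measured 12.54, 12.32, 11.67 and 12.29 in Dzhi and 12.03, 11.75, 10.38 and 11.33 in Dzlo. The groups overlapped, and the difference of 0.83 ± 0.31 became 0.50 without Dzlo replicate 3, an array of high neutrophil marker level. Without Dzlo replicate 1 the difference was 1.05.

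The other folding genes were closer together. Creld2, a disulphide isomerase induced by ER stress, differed by 0.46 ± 0.22 and the secreted stress protein gene Manf by 0.35 ± 0.18. Hspa5 measured 11.18, 10.93, 10.83 and 11.04 in Dzhi and 11.02, 10.52, 10.65 and 10.80 in Dzlo, a difference of 0.25 ± 0.15 with overlapping groups. Calr and Hyou1 were each at -0.01 and Canx at 0.01, so chaperone genes did not share one value. Without both low-affinity D arrays Hyou1 stood at 0.15 and Calr at 0.01. The 8 members with an ER stress response element had a median of 0.24, 6 of them above 0. The 32 members with a promoter lacking it had a median of 0.16, with 26 above 0. Between the zones the medians were 0.08, with 5 of 8 above 0, and -0.12, with 10 of 32.

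Translocation genes gave 11 of 13 above 0 and a median of 0.19. Srprb measured 7.44, 7.52, 7.83 and 7.58 in Dzhi and 7.06, 7.0, 7.15 and 7.11 in Dzlo, with a difference of 0.51 ± 0.20 (unadjusted p = 0.0209 in limma). Its Dzhi values were above all 11 other arrays, the next being Lzlo replicate 3 at 7.40. Spcs3, a subunit of signal peptidase, measured 10.39, 10.41, 10.49 and 10.64 in Dzhi and 10.34, 10.23, 9.82 and 10.23 in Dzlo, and its difference of 0.33 ± 0.13 became 0.22 without Dzlo replicate 3. Sec61a1 differed by 0.19 ± 0.25 (0.36 without Dzlo replicate 3) and Sec61b by 0.12 ± 0.23, with their groups overlapping. Srp68, of the particle that recognises signal peptides, had the lowest value at -0.32 ± 0.25, which was -0.17 without Dzhi replicate 4 and -0.51 without Dzhi replicate 3.

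Export genes gave 4 of 5 above 0 and a median of 0.37. Sec24d, a cargo-binding subunit of the COPII coat, was the most even member: 5.46, 5.49, 5.45 and 5.53 in Dzhi against 5.11, 5.14, 5.0 and 5.09 in Dzlo. All 4 Dzhi values were above all 11 other arrays, of which Lzhi replicate 4 was the highest at 5.31. The difference was 0.40 ± 0.12, 1.32-fold (unadjusted p = 0.00619 in limma), and lay between 0.35 and 0.53 in each of the 4 experiments. Fkbp11, Srprb and Sec24d were the 3 members whose Dzhi arrays exceeded all others, as for 11 of all genes (0.0552%). Sec24d and Fkbp11 are dim on this array, and differences of dim probe sets are compressed by RMA.

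Lman1, the lectin that carries glycoproteins out of the ER, measured 9.03, 9.05, 8.91 and 8.88 in Dzhi and 8.73, 7.92, 6.36 and 8.98 in Dzlo. The Dzhi arrays were close together and the Dzlo arrays were not, with 1 of them inside the Dzhi range. The difference of 0.97 ± 0.43 became 0.43 without Dzlo replicate 3, whose neutrophil marker level was 1.46. Without Dzlo replicate 4 the difference was 1.3.

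Degradation genes gave 6 of 7 above 0 with a median of 0.12, but within experiments the median was 0.06, 0.44, 0.29 and -0.49 in A to D. Sel1l, the scaffold of the ubiquitin ligase complex, measured 8.83, 8.77, 9.23 and 8.99 in Dzhi and 8.72, 8.19, 8.44 and 8.37 in Dzlo, a difference of 0.53 ± 0.26. Its catalytic partner Syvn1 stood at -0.29 ± 0.28 and was lower in Dzhi in all 4 experiments. Much of the Syvn1 value came from Dzlo replicate 3, at 10.86, and without that array it was -0.11. Herpud1, a scaffold induced by ER stress, differed by 0.12 ± 0.16 (0.24 without Dzlo replicate 3) and Edem1 by 0.19 ± 0.16.

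Stress genes did not share the lean towards high-affinity cells, with 1 of 5 above 0 and a median of -0.20. In experiments A to D 1, 2, 2 and 2 of the 5 were above 0. Their median within these experiments was -0.41, -0.21, -0.05 and -0.26, while that of the folding genes was 0.10, 0.58, 0.35 and 0.14. Ddit3 measured 7.98, 7.95, 7.91 and 7.73 in Dzhi and 8.71, 8.34, 8.18 and 7.96 in Dzlo. Only Dzlo replicate 4 lay within the Dzhi range, and the difference was -0.41 ± 0.21. Atf4 stood at -0.23 ± 0.13, Eif2ak3 at -0.20 ± 0.20, Atf6 at 0.00 ± 0.18 and Ern1 at 0.32 ± 0.23.

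**Figure D3:**
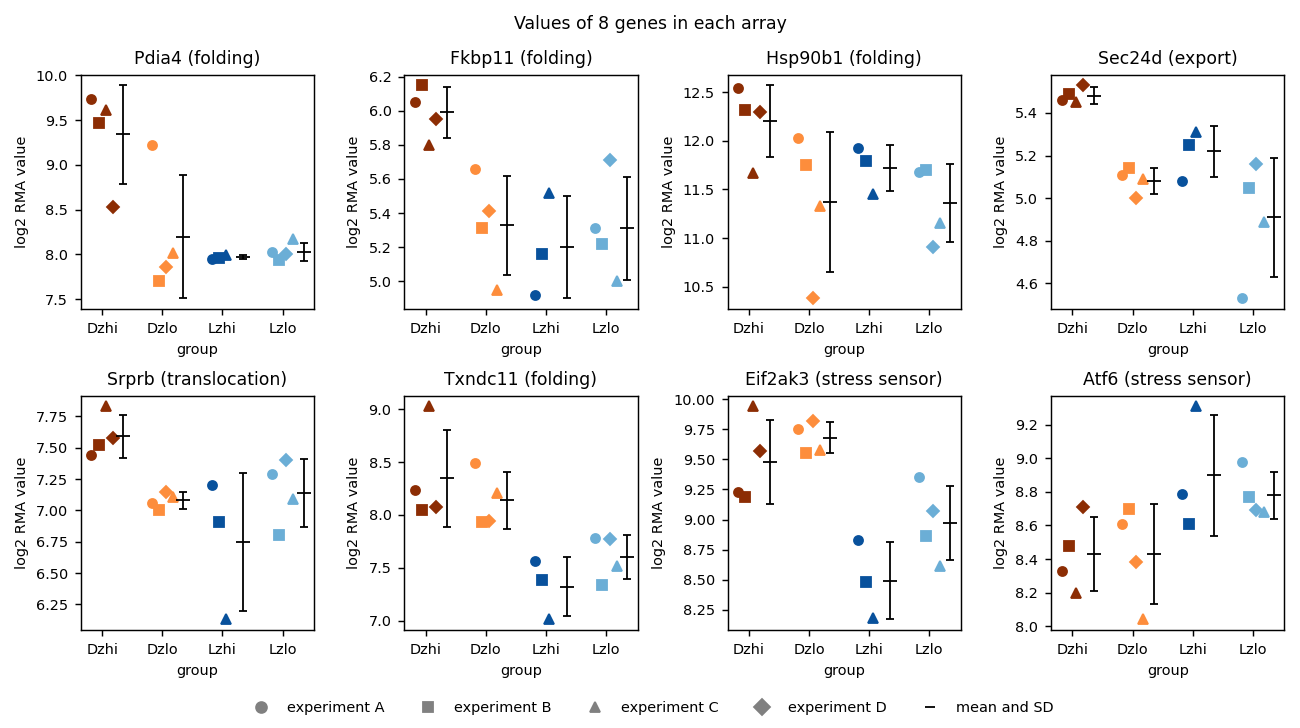
Log2 RMA values of 8 genes in each array, by group, with the experiment as the marker shape and the group mean and SD beside the points; the vertical axes differ between panels. The 4 Dzhi points of Fkbp11, Srprb and Sec24d lie above all others, and 6 of 7 light zone points of Eif2ak3 lie below all dark zone points.

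Single arrays set the size of the dark zone lean. Without Dzhi replicate 3 the median was 0.09 and 33 of 50 members were above 0. Without Dzlo replicate 2 the median was 0.13 with 33 above 0, and without Dzlo replicate 1 it was 0.21, with 11 members at an unadjusted p under 0.05. With both low-affinity D arrays left out, 38 of 50 members were above 0, the median was 0.17 and 6 members had an unadjusted p under 0.05. With arrays left out, in this and the other comparisons, the shares of all genes above 0 or at an unadjusted p under 0.05 were not computed. Within experiments A to D, 25, 43, 35 and 27 of 50 members were above 0, with medians of 0.00, 0.42, 0.13 and 0.14. Of all genes 52.6%, 50.1%, 50.7% and 40.9% were above 0, with medians of 0.02, 0, 0 and -0.07. In experiment A as many members lay above 0 as did not.

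**Figure D4:**
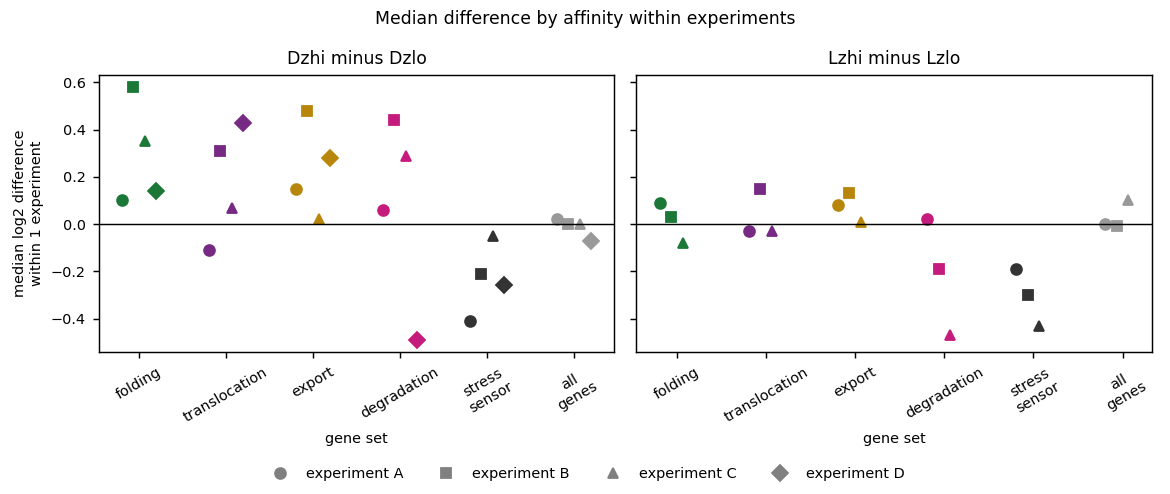
Median log2 difference between high- and low-affinity cells for each role and for all genes, within experiments A to D in the dark zone (left) and A to C in the light zone (right); each point is a pair of arrays. Folding and export medians lie above 0 in all 4 dark zone pairs, and stress gene medians lie below 0 in all 7 pairs.

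Plasma cell markers were mostly higher in Dzhi as well. Of 9 measured markers that are not members, 8 were higher in Dzhi than in Dzlo, with a median of 0.26, while Mzb1 stood at -0.12 ± 0.23. Their mean relative to all arrays was 0.21 to 0.36 in Dzhi, -0.19 to 0.18 in Dzlo, -0.17 to 0.09 in Lzhi and -0.48 to -0.05 in Lzlo, so Dzhi did not overlap the other groups. Jchain, which joins secreted IgM and IgA, differed by 0.77 ± 0.39 (0.49 without Dzlo replicate 3) and Prdm1, the plasma cell regulator Blimp-1, by 0.49 ± 0.16, with an adjusted p of 1 for both in limma. Xbp1, the factor spliced by IRE1, differed by 0.23 ± 0.26. Prdm1 was dim, averaging 4.82 in Dzhi and 4.33 in Dzlo. Sdc1, the plasma cell surface protein CD138, averaged 5.90 in Dzhi and 5.65 in Dzlo. Without detection calls it cannot be said whether Prdm1 or Sdc1 was expressed. The part of these markers in the members' differences was not tested.

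In the light zone the members showed no lean by affinity. None passed in limma, as for all genes (0%), and 2 members had an unadjusted p under 0.05, against 4% of all genes. That count was 0 without Lzhi replicate 2 or Lzhi replicate 4 and 6 without Lzhi replicate 1. In Lzhi 25 of 50 were higher, against 49.9% of all genes, and the median was 0.01. Lzhi lay wholly above Lzlo for Fkbp2 and wholly below for Edem2, against 2.26% and 2.29% of all genes. Folding genes had a median of 0.03, translocation genes 0.18, export genes 0.08, degradation genes -0.27 and stress genes -0.31.

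Single members gave wider light zone values. After Dnajb9, given below, the widest were Sec62 at 0.66, Txndc5 at -0.64 and Syvn1 at -0.52. Without both low-affinity D arrays these were 0.37, -0.33 and -0.42. Eif2ak3 stood at -0.48 ± 0.21 and was lower in Lzhi in all 3 experiments, and Ddit3 stood at -0.41 ± 0.23, also lower in all 3. The Ddit3 value was -0.13 without Lzhi replicate 4, which measured 7.35, and -0.63 without Lzhi replicate 1. Sec24d measured 5.08, 5.25 and 5.31 in Lzhi and 4.53, 5.05, 5.16 and 4.89 in Lzlo, with a difference of 0.31 ± 0.13 and overlapping groups, and without Lzlo replicate 1 the difference was 0.18. Dnajb9, a BiP cofactor that is induced by XBP1, had the highest difference at 1.09 ± 0.52. It measured 7.49, 6.97 and 7.37 in Lzhi and 7.25, 6.26, 4.65 and 6.61 in Lzlo, where the low value belonged to replicate 3, the array of the highest neutrophil marker level, and without it the difference was 0.57. Pdia4 stood at -0.07 ± 0.33 and Fkbp11 at -0.11 ± 0.20. Neutrophil markers had a median of -0.86 in this comparison, with 1 of 15 above 0, T cell markers -0.66 with 1 of 11, and NK cell markers -0.24 with 2 of 10. Their part was not tested.

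Over both zones, 0 members passed, again as for all genes (0%), and 8 had an unadjusted p under 0.05, against 4.3%. That number was 3 without Lzhi replicate 4, 4 without Dzhi replicate 2, 5 without Dzhi replicate 1 or Dzlo replicate 3, and 4 without both low-affinity D arrays, while it was 12 without Dzlo replicate 1 and 13 with the experiment as a random block. Sec24d had the lowest p of them, with high-affinity cells 0.35 ± 0.09 above low-affinity cells (adjusted p = 0.777 in limma) and a positive difference in all 7 pairs. Ddit3 lay below 0 in all 7 pairs, at -0.41 ± 0.15 (adjusted p = 0.999, and 0.455 with the experiment as a block).

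Whether the affinity difference itself differed between zones was asked with the interaction, Lzhi minus Lzlo less Dzhi minus Dzlo. No gene passed (0%), and 4 members had an unadjusted p under 0.05, all below 0, against 0.682% of all genes in that direction. They were Srprb at -0.90 ± 0.29 (-0.60 without Lzhi replicate 4), Fkbp11 at -0.77 ± 0.27, Pdia4 at -1.20 ± 0.44 and Creld2 at -0.71 ± 0.33, each with an adjusted p of 1. Of the 50 members 15 lay above 0, against 49.7% of all genes, with a median of -0.14. That number ran from 9 without Dzhi replicate 4, without Dzlo replicate 1, or without experiment D, to 22 without Dzlo replicate 2, where the median was -0.04. The interaction shares its arrays with the comparisons by affinity and by zone, so these values are no separate evidence for them.

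Other genes of the same pathways were taken from lists of 98 measured genes outside the 50. None passed in any comparison, with or without the experiment as a block. In the dark zone, 19 of 28 further folding and glycosylation genes were above 0 in high-affinity cells (median 0.05), as were 7 of 12 translocation genes (0.10), 17 of 24 export and retrieval genes (0.13), 9 of 16 degradation genes (0.04) and 6 of 18 stress genes (-0.04). At the ends lay Creb3l2, a membrane-bound transcription factor of secretory cells, at 0.76 ± 0.22 and Chac1, a glutathione-degrading target of ATF4 and CHOP, at -0.55 ± 0.18. Between the zones the lowest were Tram2, of the translocation channel, at -1.04 ± 0.26 (adjusted p = 0.217) and Sec24a, a COPII subunit related to Sec24d, at -0.68 ± 0.19 (adjusted p = 0.361). The medians of these 5 lists between the zones were 0.02, -0.10, -0.09, -0.04 and -0.16.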

How the data were processed

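The deposited values are log2 signals of 28853 probe sets that the authors summarised with RMA, per the submitters' processing notes; build mm8 is named there, and no version. RNA was extracted with Trizol and amplified, per the labels' protocols. In the platform annotation 21789 probe sets had 1 gene, 1621 several and 5443 none, and the highest mean probe set of each gene left 19938 genes, with no filter on dim genes and no detection calls. Limma 3.58.1 in R 4.3.3 fitted 4 group means to 15 arrays (residual degrees of freedom: 11), with Benjamini-Hochberg adjustment over all genes. The number of arrays limits the precision. The fit without a block was tried on simulated data, for the zones over both affinities and for affinity within each zone. Arrays did not deviate together in those data, so shared deviations within an experiment were not covered. Figures were drawn with matplotlib 3.10.9.

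The members and lists were chosen with earlier results of these data known. Named genes were those passing with or without the block, the 2 highest and 2 lowest of each role, and a set of 22 genes. Others with a value, such as Manf, Creld2 and Dnajb9 where they are not among these, were chosen after their values were seen. Arrays of different groups with the same experiment code deviated together in 16 of 21 pairs (mean correlation 0.288). With different codes this held for 21 of 63 pairs (mean -0.082). The code was therefore used as a block beside the fit without it. Alternatives changed the normalization, filter, probe set rule, variance model, weights, block and arrays.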

Additional observations from a re-analysis of the deposited data

Results flagged for a closer look

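Of 150 sets of group values for the members in Dzhi, Dzlo and Lzlo, 8 (5.33%) held an array far from the others. This was by Dixon's test at the 95% level, and is close to the 1 in 20 that chance gives. Lzhi, with 3 arrays, was not tested. The Sec63 value of 5.52 in Lzhi replicate 4, against 8.41 and 8.35 in replicates 1 and 2, is therefore not among the 8. In Dzhi, Pdia5 measured 5.81 in replicate 1, against 5.48 to 5.52 in the others, and Derl1 measured 9.25 in replicate 3, against 8.25 to 8.36. In Dzlo replicate 3, Pdia3 measured 9.43, against 10.68 to 10.92, Sec63 measured 7.10, against 8.34 to 8.46, and Sec11c measured 10.13, against 10.94 to 10.99. In Lzlo replicate 3, Pdia3 measured 9.47, against 10.86 to 11.02, and Srp68 measured 8.51, against 7.94 to 8.04. Pdia5 measured 5.66 in Lzlo replicate 2, against 5.46 to 5.49. Of these 8, 5 belong to Dzlo replicate 3 and Lzlo replicate 3, the arrays of the highest neutrophil marker levels (1.46 and 2.74), whose part was not tested. No member's interaction of zone and affinity passed after adjustment.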

How the results depend on the processing

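The count of members passing between the zones, 1 as reported, was 0 with each array centred on its median, with the trended and robust variance model, with the experiment code as written, without the low-affinity pair of arrays from experiment D and without all arrays of that experiment. It was 2, Eif2ak3 and Txndc11, with array weights, with the experiment as a random block, at an adjusted p under 0.10, and after quantile normalization between arrays, which was chosen after seeing the data. Leaving out 1 array gave 0 to 1, and 0 in 9 of 15 cases (Dzhi replicate 4, any Dzlo replicate, Lzhi replicates 2 and 4, Lzlo replicates 2 and 4). Over 28 alternatives Eif2ak3 ran from -0.93 to -0.77, with adjusted p between 0.0154 and 0.129, and passed in 14. The title number also pairs the arrays, with deviations correlated above 0.1 in 15 of 21 pairs (mean 0.227). With different title numbers this held for 22 of 63 pairs (mean -0.0615). With the title number as a replicate block the count stayed at 1, and 15 members had an unadjusted p under 0.05 in place of 9. In the other 6 comparisons 0 members passed under every alternative run. No passing result changed sign, and the medians over the members moved by less than their spread between arrays (0.13). Values near 0 did change sign: the median by affinity in the light zone ran from -0.07 to 0.06, that between zones in low-affinity cells from -0.05 to 0.08 with 20 to 31 of 50 above 0, Fkbp11 by affinity in the light zone from -0.27 to 0.03, and Ddit3 between the zones from -0.09 to 0.16. The array has no depth, and signal over background was not given. The size of the differences of dim members such as Sec24d, Fkbp11 and Pdia5 is therefore uncertain.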
